A study of Mus musculus with 12 samples.

Results

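The 7 genes described here carry out or control antigen presentation by major histocompatibility complex (MHC) class II molecules: *H2-Aa*, *H2-Ab1*, *H2-Eb1*, *Cd74*, *Ciita*, *H2-DMa* and *H2-DMb1*. They were chosen by gene symbol, and all 7 were found among the 14244 gene rows of the table. Their RNA was measured in gut epithelial cells of C57BL/6 mice that were 8 weeks old, 5 wild type (WT) and 7 *Chd8L*+/- male littermates, with 1 library per mouse. In *Chd8L*+/- mice 1 allele of *Chd8*, a gene for a chromatin remodeler, lacks exons 11 to 13, so that the long isoform is lost from that allele in every cell of the body and not in the epithelium alone. The cells were shaken from washed pieces of intestine with EDTA and DTT and no sorting step is described, so other cells of the mucosa can be present.

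MHC class II molecules display peptides from engulfed material to CD4 T cells. B cells and dendritic cells make them at all times, and macrophages and intestinal epithelial cells make more of them when interferon-gamma reaches them. An alpha chain and a beta chain form the peptide groove, the invariant chain encoded by *Cd74* fills it until the molecule reaches endosomes, and the H2-DM heterodimer then exchanges the remnant of the invariant chain for peptide. *Ciita*, the class II transactivator, binds no DNA itself and is recruited to class II promoters by factors that sit on the conserved X and Y boxes.

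The X and Y boxes are shown as background on class II promoters, and their part in the levels across the libraries was not tested. Promoter sequences were taken from a supplied set of RefSeq promoter windows (GRCm38.p6). The set held windows for 4 of the 7 genes: *H2-Aa*, *H2-Eb1*, *H2-DMb1* and *H2-DMa*. It does not show what RefSeq holds for the others. An X core written as CTNGNAAC was searched with an inverted CCAAT box, GATTGG, lying up to 40 bases after it on the same strand, in the 250 bases before each start and on both strands. The 2 motifs do not overlap, and their letters were written after these promoters had been read. The pair was found for *H2-Aa*, *H2-Eb1* and *H2-DMb1* and for *H2-Ob*, a class II gene outside the set, and in 48 of all 32851 windows of this length (0.146%). The pair was not found in the windows of *H2-DMa*, *H2-DMb2*, *H2-Oa* and *H2-Eb2*. The X core by itself was in 10.9% and GATTGG in 14.6% of all windows. The window of *H2-DMb1* is not shown because it lies within the GENCODE model of the gene. The sequences shown are chr17:34287847-34287927 (minus strand) for *H2-Aa*, chr17:34305753-34305832 (plus strand) for *H2-Eb1* and, from outside the set, chr17:34238795-34238872 (plus strand) for *H2-Ob*. They run 5′ to 3′, with the X core and then the Y box in capitals.
H2-Aa: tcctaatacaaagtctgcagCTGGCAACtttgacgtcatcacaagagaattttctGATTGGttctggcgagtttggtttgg
H2-Eb1: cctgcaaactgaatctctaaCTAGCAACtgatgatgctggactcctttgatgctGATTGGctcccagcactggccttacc
H2-Ob: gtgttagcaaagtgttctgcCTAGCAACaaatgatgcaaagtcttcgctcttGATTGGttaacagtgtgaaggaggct

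The deposited values are read counts per gene divided by a size factor of each library, called normalized read counts here. Between 15691662 and 20761315 reads per library could be recovered from them. Among 12808 genes with a mean of at least 10, limma on log2(value + 1) called 3 genes between genotypes at an adjusted p of 0.05 or less (0.0234%), while 3110 genes (24.3%) had an unadjusted p at or under that level. WT replicate 2 lay among the *Chd8L*+/- libraries on the first principal component, and 3534 genes were called without it. *Chd8* over its whole gene was between 823 and 1050 in WT and between 1084 and 1483 in *Chd8L*+/- libraries, which does not check the deletion, since reads outside exons 11 to 13 are counted too, and the genotype is taken from the labels throughout. All 8 epithelial markers were found in every library, with the keratin gene *Krt8* highest on average over the libraries. Fewer class II cells and less RNA per cell cannot be told apart in these bulk libraries.

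The chains of the class II molecule showed no shared shift between genotypes but a wide split among *Chd8L*+/- mice. *H2-Aa* (chr17:34282744-34287823, minus strand), the alpha chain of the I-A molecule, was at 1105, 1089, 774, 1162 and 410.0 normalized read counts in WT replicates 1 to 5. In *Chd8L*+/- replicates it was at 388, 475, 6755, 1873, 3976, 190.3 and 605 in the order 1 to 7. Replicates 3, 4 and 5 were above every WT mouse, replicates 1 and 6 were below every WT mouse, and 2 and 7 lay inside the WT range. The log2 fold change was 0.25 ± 0.76 (SE; 95% interval -1.38 to 1.87; limma adjusted p = 0.864), and the two-sided exact permutation test over all 792 assignments of the libraries gave p = 0.788.

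*H2-Ab1* (chr17:34257689-34269419, plus strand), the beta chain that pairs with *H2-Aa*, was at 2035, 1991, 1219, 1869 and 1259 in WT. In *Chd8L*+/- it was at 879, 875, 9186, 3477, 8142, 433 and 1607 in replicates 1 to 7. The same replicates 3, 4 and 5 stood above all WT mice, and 1, 2 and 6 stood below them. *H2-Eb1* (chr17:34305867-34316674, plus strand), the beta chain of the I-E molecule, ranged from 666 to 1430 with a median of 1240 in WT and from 282 to 5021 with a median of 983 in *Chd8L*+/-. It again had replicates 3, 4 and 5 above and 1, 2 and 6 below the WT range. Its usual partner *H2-Ea*, which is a pseudogene in this strain by its annotated name, had no row under the symbol *H2-Ea*, and no other symbol was searched. The log2 fold changes were 0.31 ± 0.67 for *H2-Ab1* (limma adjusted p = 0.799) and 0.16 ± 0.64 for *H2-Eb1* (limma adjusted p = 0.896), with exact permutation p-values of 0.698 and 0.826.

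*Cd74* (chr18:60803848-60812652, plus strand), the invariant chain, had the highest level of the set. It was at 4027, 3604, 2499, 4412 and 1525 in WT, and at 1131, 1301, 18058, 6293, 13408, 499 and 1769 in *Chd8L*+/- replicates 1 to 7. Its lowest and highest *Chd8L*+/- libraries were 36.2-fold apart, against 2.89-fold in WT. The median was 1769 in *Chd8L*+/- and 3604 in WT, a ratio of 0.491, whereas the ratio of the means was 1.89, with 6066 ± 7003 (SD, n = 7) against 3214 ± 1185 (SD, n = 5). On the log2 scale the difference was -0.02 ± 0.78 (limma adjusted p = 0.989; exact permutation p = 0.981). The microRNA gene *Mir5107* lies within an exon of *Cd74* on the same strand, and how the authors counted such reads is not stated.

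The genes of the H2-DM editor split in the same way. *H2-DMa* (chr17:34119541-34139101, plus strand), its alpha chain, was at 326, 308, 259, 349 and 309.7 in WT, the narrowest WT range of the set. In *Chd8L*+/- it was at 107, 127, 966, 529, 978, 103 and 206. No *Chd8L*+/- mouse lay inside the WT range, with 3 above it and 4 below it, a pattern shown by 0.734% of tested genes. *H2-DMb1* (chr17:34153072-34160230, plus strand), the beta chain, was at 249.8, 226, 138, 175 and 122 in WT and at 64.8, 78.2, 1275, 519, 798, 34.6 and 138 in *Chd8L*+/-. Replicates 3, 4 and 5 were again above and 1, 2 and 6 below all WT mice. The log2 fold changes were -0.13 ± 0.57 for *H2-DMa* (limma adjusted p = 0.909) and 0.19 ± 0.78 for *H2-DMb1* (limma adjusted p = 0.898), and the exact permutation p-values were 0.845 and 0.835. *H2-DMb1* has a near copy, *H2-DMb2*, and reads may be split between them; with both added together the difference was -0.00 (exact permutation p = 0.999). *H2-DMa* shares exon sequence with *Brd2* on the opposite strand, and use of strand is not stated.

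*Ciita* (chr16:10480059-10528418, plus strand) had the lowest level and departed in part from the others. It was at 70.2, 103.5, 148.2, 147.8 and 25.1 in WT and at 63.0, 102, 521, 141, 328, 31.0 and 104 in *Chd8L*+/-. Replicates 3 and 5 were above all WT mice, replicate 4 was inside the WT range, and no *Chd8L*+/- mouse was below WT replicate 5. The log2 fold change was 0.59 ± 0.63, the largest of the set (limma adjusted p = 0.579; exact permutation p = 0.457). Part of its exons overlaps *Dexi* on the opposite strand.

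**Figure D1:**
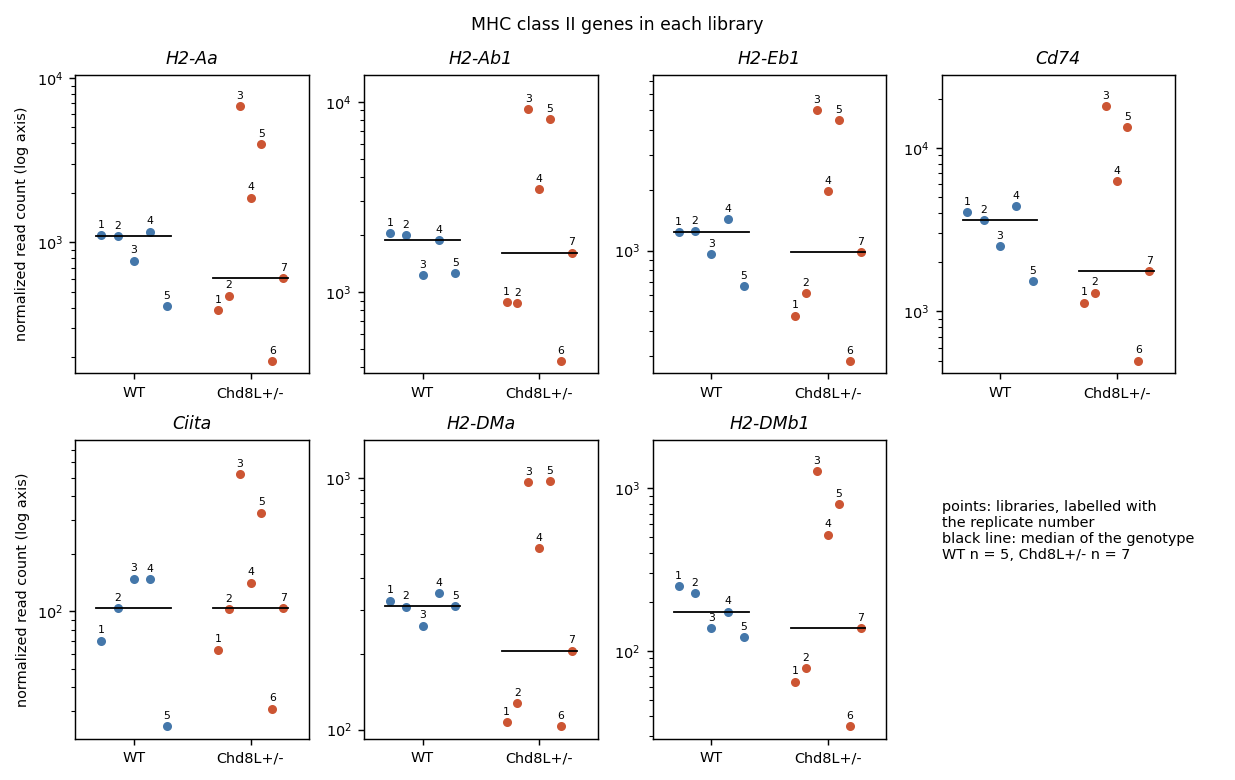
Normalized read counts (log axis) of the 7 class II genes in each library, with points labelled by replicate number and a black line at the median of the genotype (WT n = 5, *Chd8L*+/- n = 7). *Chd8L*+/- replicates 3 and 5 sit highest in every panel and replicate 6 lowest among *Chd8L*+/- libraries, while the WT libraries lie between these extremes for every gene except *Ciita*, where WT replicate 5 is lowest.

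None of the 7 genes passed the threshold (0 of 7, against 0.0234% of all tested genes), and none had an unadjusted limma p at or under 0.05, against 24.3% of all genes. edgeR and DESeq2 on the recovered reads also called 0 of 7, against 5 and 811 genes over the whole table. By sign, 5 were higher and 2 lower in *Chd8L*+/-, with a median log2 fold change of 0.19 against 0.01 over all genes. The intervals were wide, the narrowest from -1.34 to 1.09 for *H2-DMa*, so a change of 2-fold in either direction lies inside each of them except a fall of that size for *Ciita*, whose interval was -0.75 to 1.94. The values differed between fits. edgeR on the recovered reads gave 1.19 for *H2-Aa*, 0.94 for *Cd74* and 0.49 for *H2-DMa* (adjusted p = 0.354, 0.464 and 0.611), so that *Cd74* and *H2-DMa* changed sign. An exact permutation test on untransformed values gave p between 0.347 and 0.511 for the 7 genes. Single mice also decided the sign: without *Chd8L*+/- replicate 3, *H2-Aa* was at -0.21, *H2-Ab1* at -0.05, *H2-Eb1* at -0.18 and *H2-DMb1* at -0.25, and these 4 were also below 0 without replicate 5.

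**Figure D2:**
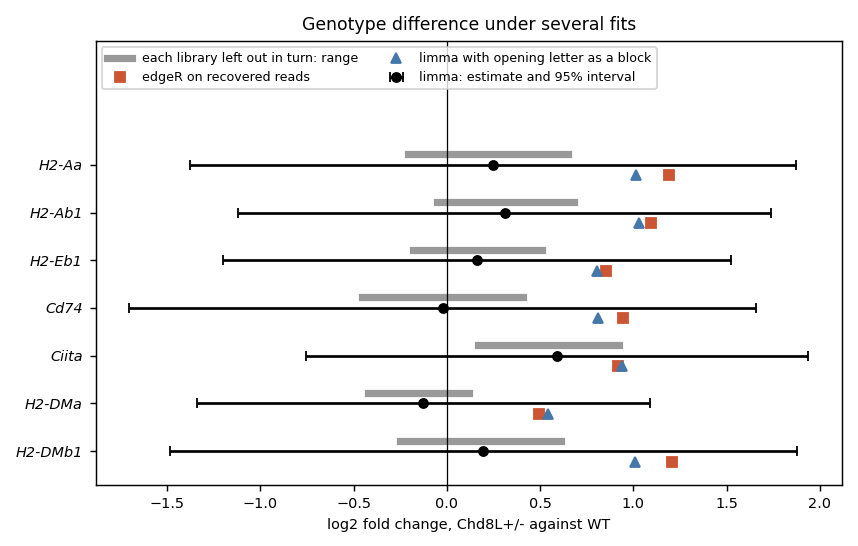
Log2 fold change of each class II gene, *Chd8L*+/- against WT: black points and bars show the limma estimate with its 95% interval, grey bars the range when each library is left out in turn, red squares edgeR and blue triangles limma with the opening letter of the library name as a block. Every interval spans 0, and the edgeR values lie to the right of the limma values for all 7 genes.

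The spread among mice, rather than the level, set *Chd8L*+/- apart in description. The SD of log2(value + 1) was between 1.36 (*Ciita*) and 1.995 (*H2-DMb1*) in *Chd8L*+/- and between 0.16 (*H2-DMa*) and 1.05 (*Ciita*) in WT, while over all tested genes the median SD was 0.309 in *Chd8L*+/- and 0.351 in WT. The SD was 9.16 times as large in *Chd8L*+/- as in WT for *H2-DMa*, 4.64 times for *H2-Ab1*, 4.51 times for *H2-DMb1*, 3.68 times for *H2-Eb1*, 3.13 times for *Cd74*, 3.01 times for *H2-Aa* and 1.31 times for *Ciita*. A ratio of at least 3 was reached by 6 of the 7 genes and by 2.35% of all genes. The same 6 genes had at least 2 *Chd8L*+/- mice above and at least 2 below the whole WT range, as did 5.99% of all genes. A permutation test of the absolute deviation from the median of the own genotype, over all 792 assignments, gave an unadjusted p of 0.0164 for *H2-DMa*, 0.0290 for *H2-Ab1* and *H2-DMb1*, 0.0442 for *H2-Eb1*, 0.0884 for *Cd74*, 0.0972 for *H2-Aa* and 0.619 for *Ciita*. Before adjustment and with the wider spread in *Chd8L*+/-, 0.05 was reached by 4 of the 7 genes and 0.609% of all genes, but no gene of the table passed after adjustment (adjusted p = 0.998 for each of the 7). This test was chosen after the values were seen, and the 7 genes share their libraries and do not count as separate evidence.

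**Figure D3:**
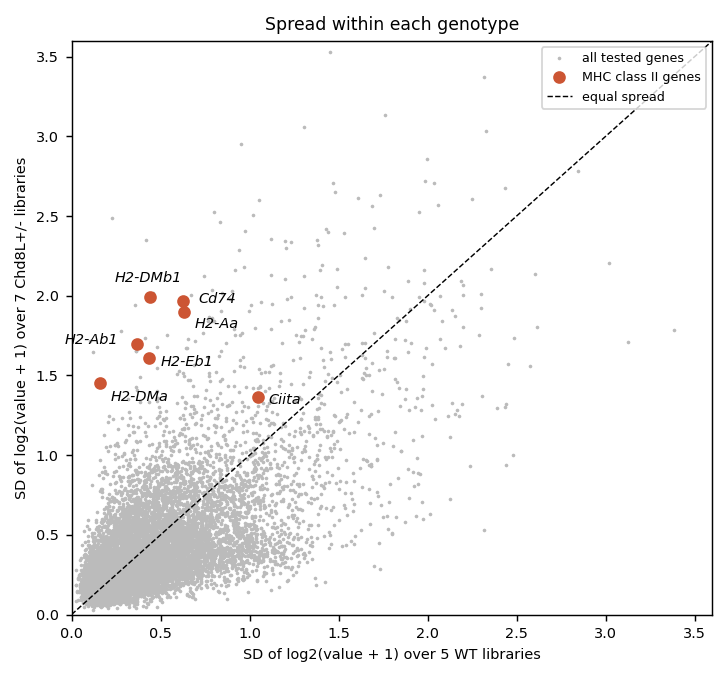
SD of log2(value + 1) over the 5 WT libraries (x axis) against that over the 7 *Chd8L*+/- libraries (y axis), for all tested genes (grey) and the 7 class II genes (red), with a dashed line of equal spread. All 7 class II genes lie above the line, from 1.36 for *Ciita* to 1.995 for *H2-DMb1* on the y axis.

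The genes of the set moved together across libraries, with ratios between them that varied to different degrees. Over the 12 libraries the 21 pairs had a Pearson r of log2 values between 0.729 and 0.992 with a median of 0.965, and within the 7 *Chd8L*+/- libraries between 0.918 and 0.998. The 6 pairs with *Ciita* were the looser ones, with a median r of 0.843 against 0.980 for the other 15. These are descriptions, since all points share the libraries. *H2-Aa* was at 0.284 ± 0.0208 of *Cd74* in WT and 0.343 ± 0.0345 in *Chd8L*+/- (SD, n = 5 and n = 7), with a range over all libraries of 0.263 to 0.381, or 1.45-fold. *H2-Eb1* was between 0.529 and 0.786 of *H2-Ab1*, a 1.49-fold range, and *H2-Aa* between 0.326 and 0.735 of *H2-Ab1*, a 2.26-fold range. *H2-DMa* moved less steeply than its partner: the ratio of *H2-DMa* to *H2-DMb1* fell to 0.758 in *Chd8L*+/- replicate 3 and reached 2.97 in replicate 6, the libraries with the highest and lowest *H2-DMb1*, a 3.92-fold range. *Ciita* was between 0.0164 and 0.0786 of *Cd74*, a 4.78-fold range.

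Per kilobase of annotated exon, the order of levels was the same in both genotypes. In WT the mean normalized read count per kilobase was 1914 ± 706 for *Cd74*, 652 ± 157 for *H2-Ab1*, 571 ± 154 for *H2-Eb1*, 239 ± 83.5 for *H2-Aa*, 108 ± 32.8 for *H2-DMb1*, 90.1 ± 9.60 for *H2-DMa* and 10.4 ± 5.53 for *Ciita* (SD, n = 5). *Cd74* was above *H2-Ab1* in all 12 libraries. *H2-Ab1* and *H2-Eb1* were not separated beyond their spread in WT, where *H2-Ab1* was higher in 3 of 5 libraries, and *H2-DMb1* and *H2-DMa* were likewise close (4 of 5). In *Chd8L*+/- the same order held with 3613 ± 4171 per kilobase for *Cd74* and 19.3 ± 18.5 for *Ciita* (SD, n = 7).

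The opening letter of the library names (A to D), whose meaning is not given in the sources used here, divided the *Chd8L*+/- mice in the same way. Under A, *Cd74* was at 3604 and 4027 in both WT libraries and at 6293 and 18058 in both *Chd8L*+/- libraries. Under B it was at 1525 and 4412 in WT and at 13408 in *Chd8L*+/-. Under C it was at 2499 in the only WT library and between 499 and 1301 in the 3 *Chd8L*+/- libraries, and D held 1 *Chd8L*+/- library. The difference in mean log2 was thus 1.48 under A, 2.37 under B and -1.47 under C for *Cd74*, and all 7 genes had this order of signs. With the letter as a block, the log2 fold change was 0.81 for *Cd74* and between 0.54 and 1.03 for the 7 genes. In that limma fit 0 of 7 passed, against 451 genes over the whole table. Whether the letter marks a batch was not tested and cannot be told from the labels. The library names also hold a number of unstated meaning, which no fit used. Where both genotypes shared a number, *Cd74* was lower in *Chd8L*+/- replicate 2 (1301) than in WT replicate 1 (4027). It was also lower in *Chd8L*+/- replicate 1 (1131) than in WT replicates 2 and 4 (3604 and 4412). It was higher in *Chd8L*+/- replicate 5 (13408) than in WT replicate 3 (2499), and in replicates 3 and 7 (18058 and 1769) than in WT replicate 5 (1525).

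Other genes of class II loading, processing and turnover did not form 1 pattern. Of 16 listed genes, 11 were found by symbol and 10 were tested. *March1* and *March8* were among those not found, and the table holds 21 names turned into dates, which were not matched to genes. None passed the threshold in either direction, 2 were higher and 8 lower by sign, and the median log2 fold change was -0.30 against 0.01 over all genes. *H2-Ob* and *H2-Oa*, which form the H2-O inhibitor of H2-DM found mostly in B cells, and *H2-Eb2*, a beta chain gene, parted from the set in *Chd8L*+/- replicate 4. In that library *H2-Ob* was at 3.14, *H2-Oa* at 4.19 and *H2-Eb2* at 1.05, while *H2-Aa* and *Cd74* were above all WT mice. The B cell receptor gene *Cd79a* was at 7.33 there. In WT replicates 3 and 4, by contrast, *H2-Ob* was at 215 and 240.0 and *Cd79a* at 244 and 488.0, while *H2-Aa* stayed at 774 and 1162. The log2 fold changes of largest size in the list were -0.67 ± 1.23 for *H2-Ob*, -0.58 ± 0.96 for *H2-Eb2* and 0.43 ± 0.75 for *Cd40*, a costimulatory receptor (limma adjusted p = 0.762, 0.736 and 0.744). *H2-DMb2* lay between both patterns, from 0.216 to 1.66 of *H2-DMb1*.

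**Figure D4:**
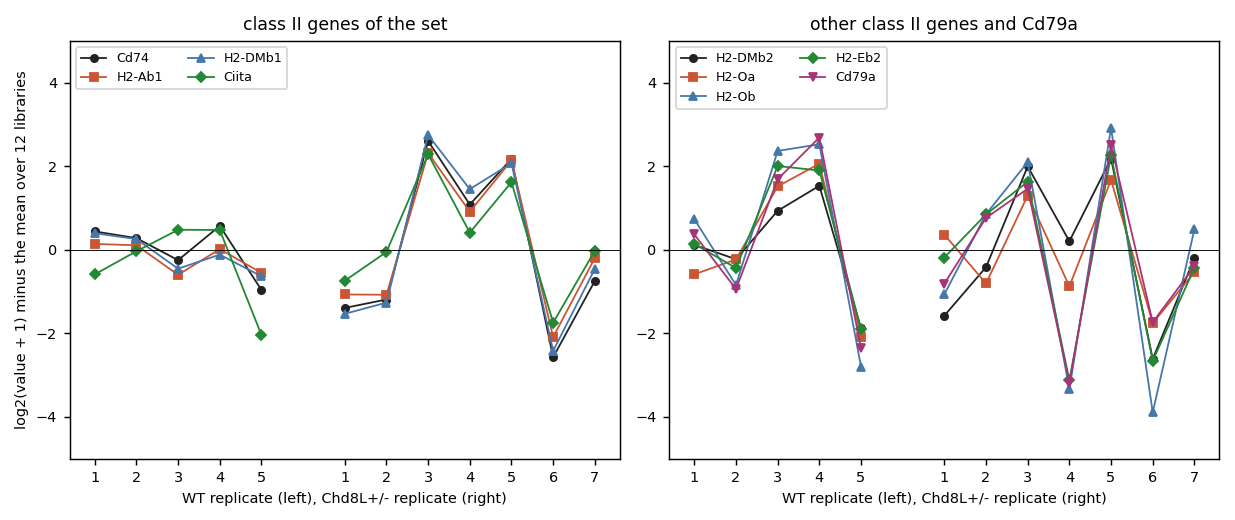
Log2(value + 1) minus the mean over the 12 libraries, by WT replicate (left) and *Chd8L*+/- replicate (right), for 4 genes of the set (left panel) and for other class II genes with the B cell gene *Cd79a* (right panel). In *Chd8L*+/- replicate 4 the genes of the left panel are above 0, whereas *H2-Ob*, *H2-Oa*, *H2-Eb2* and *Cd79a* are below it.

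The factors that bind class II promoters varied little beside the set. All 9 listed genes were tested, 0 passed, and the median log2 fold change was 0.04; the sum of their values was between 4206 and 5120 in WT and between 4463 and 5594 in *Chd8L*+/-. *Rfx5*, a subunit of the X box factor RFX, was at 0.59 ± 0.23 (limma adjusted p = 0.150), *Crebbp*, a histone acetyltransferase, at 0.39 ± 0.16 (adjusted p = 0.162), and *Rfxank*, another RFX subunit, at -0.28 ± 0.18 (adjusted p = 0.348). Of 7 tested genes of interferon-gamma signalling 0 passed; the largest differences were -1.08 ± 0.38 for the feedback inhibitor *Socs1*, -0.70 ± 0.25 for the receptor chain *Ifngr2* and -0.26 ± 0.24 for the kinase *Jak2* (limma adjusted p = 0.129, 0.136 and 0.508). *Ifng* itself was too low to be tested and was at 25.8 in *Chd8L*+/- replicate 2 and at 10.5 or less in the others.

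Added up as a list, target genes of interferon-gamma were highest in the 2 *Chd8L*+/- mice with the highest class II levels, replicates 3 and 5. Not every gene of the list had this order. *Gbp3* was highest in *Chd8L*+/- replicate 7, at 132, and *Zbp1* in *Chd8L*+/- replicate 5, at 547, was below WT replicate 3, at 805. The list of guanylate-binding protein and other target genes summed to 5529 in *Chd8L*+/- replicate 3, 3283 in replicate 5, 3191 in replicate 7 and 2901 in replicate 4, and to between 1682 and 2019 in replicates 1, 2 and 6, with WT between 2238 and 2737. Of its 15 tested genes 0 passed, 13 were higher by sign, and the median log2 fold change was 0.21. The largest were 1.18 ± 0.69 for the immunity-related GTPase *Iigp1*, 0.52 ± 0.36 for *Gbp7* and 0.51 ± 0.44 for the chemokine *Cxcl9* (limma adjusted p = 0.303, 0.387 and 0.489). In MHC class I presentation, 0 of 12 passed and 10 were lower by sign. *Nlrc5*, the class I counterpart of *Ciita*, was at 0.61 ± 0.40 (adjusted p = 0.355), the light chain *B2m* at -0.51 ± 0.22 (adjusted p = 0.186) and the immunoproteasome subunit *Psmb8* at -0.42 ± 0.23 (adjusted p = 0.271). The peptide transporter gene *Tap1* was at 2577 and 2556 in *Chd8L*+/- replicates 3 and 5 and between 997 and 1548 in the other 10 libraries.

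Across the 12 libraries *Cd74* was compared with the mean log2 value of 6 lists. The lists were written with earlier results of these data known, so the p-values given here are not independent support. With the interferon-gamma targets Pearson r was 0.804 (permutation p = 0.0015, Benjamini-Hochberg over the 6 lists 0.0090) and Spearman rho 0.699 (permutation p = 0.0143, adjusted 0.0856). The first relation rested on *Chd8L*+/- replicates 3 and 5, without which r was 0.515 (permutation p = 0.127, adjusted 0.253). Within the 7 *Chd8L*+/- libraries r was 0.967 (exact permutation p = 0.000198, the smallest that the 5040 orders can give, adjusted 0.00119). The opening letter of the library names also divided these 7 libraries, and its part in this relation was not tested. Within these 7 libraries r was also 0.806 with T cell markers (exact permutation p = 0.0470, adjusted 0.141), 0.591 with B cell markers (adjusted 0.293 by the same exact test), 0.552 with dendritic cell markers (adjusted 0.293), 0.121 with macrophage and monocyte markers and -0.133 with epithelial markers (adjusted 0.790 for both); the differences between these relations were not tested. No r was computed within the 5 WT libraries alone. Among them, replicate 5 had the lowest *Cd74*, 1525, with a mean log2 value of the interferon-gamma targets of 6.42. WT replicate 4 had the highest *Cd74*, 4412, with a lower list mean of 6.14, so the rise seen in *Chd8L*+/- is not shown for WT. Over all 12 libraries, with B cell markers r was 0.551 and rho 0.448 (permutation p = 0.0634 and 0.149, adjusted 0.127 and 0.298). With T cell markers r was 0.660 and rho 0.566 (permutation p = 0.0209 and 0.0590, adjusted 0.0626 and 0.177). With dendritic cell markers r was 0.503 and rho 0.399 (adjusted permutation p = 0.144 and 0.304), with macrophage and monocyte markers 0.104 and 0.0420 (0.835 and 0.903) and with epithelial markers -0.0665 and -0.0839 (0.835 and 0.903). Without the 2 libraries farthest from the median of each list, r was 0.663, 0.253, -0.122, 0.546 and -0.394 for B cells, dendritic cells, macrophages and monocytes, T cells and epithelial cells, with adjusted permutation p-values of 0.227 or more.

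**Figure D5:**
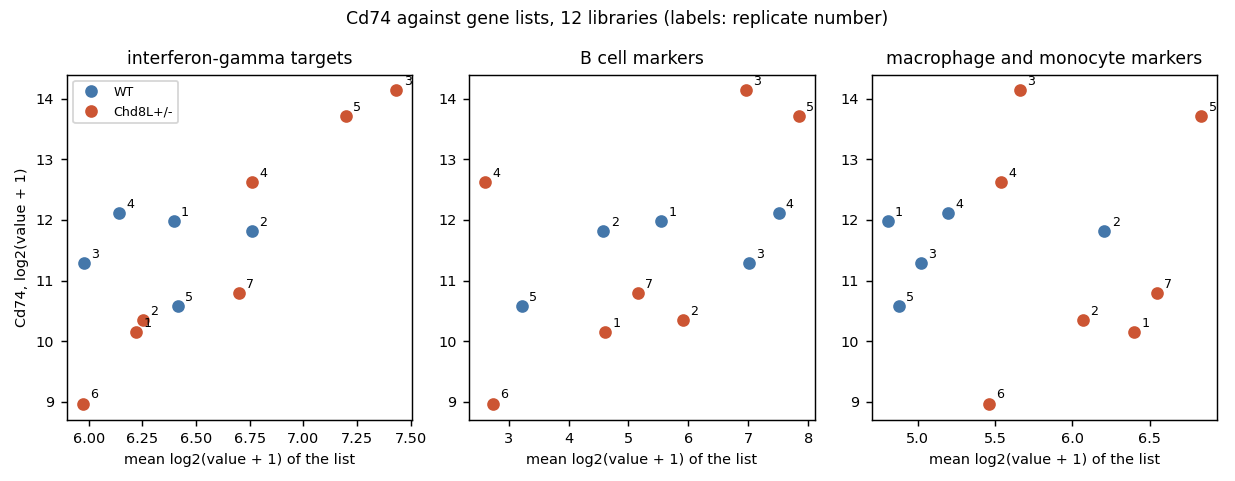
*Cd74* as log2(value + 1) against the mean log2(value + 1) of 3 gene lists in the 12 libraries, labelled by replicate number. The 7 *Chd8L*+/- libraries rise along the interferon-gamma targets (r = 0.967), while *Chd8L*+/- replicate 4 has the lowest B cell mean together with the third highest *Cd74*.

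Markers of the other class II cell types were present in the preparation. All 8 B cell markers were found, none passed and all 8 were lower by sign, with a median log2 fold change of -0.50; their sum was between 85.3 and 1662 in WT and between 55.5 and 2011 in *Chd8L*+/-, and it was lowest of all libraries, 55.5, in *Chd8L*+/- replicate 4. *Cd79a* was the highest of them on average over the libraries. Of 9 dendritic cell markers 8 were found, 5 were tested and 0 passed; 3 were higher and 2 lower by sign, with a median log2 fold change of 0.47. Their sums, between 917 and 2739 in WT and between 772 and 1624 in *Chd8L*+/-, were mostly *Naaa*, at -0.96 ± 0.32 (limma adjusted p = 0.127), whereas *Itgax* was at 0.47 ± 0.37, *Flt3* at 1.01 ± 0.58 and *Zbtb46* at 0.76 ± 0.56. *Cd209a* was at 0 in 2 libraries. Of 12 macrophage and monocyte markers 11 were found, 10 were tested and 0 passed. By sign 9 were higher and 1 lower, with a median log2 fold change of 0.99, and 5 of the 10 had an unadjusted limma p at or under 0.05, against 24.3% of all genes. The largest differences were 1.35 ± 0.40 for *Itgam*, 1.33 ± 0.58 for *C1qc* and 1.17 ± 0.37 for *Cx3cr1* (limma adjusted p = 0.121, 0.181 and 0.122). The sums, mostly *Lyz2*, were between 1162 and 3172 in WT and between 1792 and 4055 in *Chd8L*+/-. The sum was highest in *Chd8L*+/- replicate 5 and was 2105 in replicate 3, below the 2393 of replicate 1, in which the class II genes were low. Of the 7 T cell markers found and tested 0 passed, 2 were higher and 5 lower by sign, with a median of -0.17, and they summed to between 913 and 1901 in WT and between 943 and 2094 in *Chd8L*+/-, with *Cd8a* highest on average. The 8 epithelial markers summed to between 167480 and 296769 in WT and between 161862 and 289413 in *Chd8L*+/-. The part of these cells in the class II levels was not tested.

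The genes whose pattern was most like the mean log2 value of the set, out of all tested genes over the 12 libraries, were *Ubd* (Pearson r = 0.950), *Pik3ca* (0.913), *Mmp28* (0.903), *Thpo* (0.892), *H2-DMb2* (0.884), *Ppp2r2c* (0.882), *Tap1* (0.874), *Prss27* (0.872), *Adam19* (0.868) and *Nxpe3* (0.866). *Ubd*, a ubiquitin-like modifier encoded on chromosome 17, was between 15.0 and 73.1 in WT and between 5.46 and 555 in *Chd8L*+/-. Without the 2 libraries whose class II mean lay farthest from the median, r was between 0.675 (*Nxpe3*) and 0.910 (*Ubd*). *Prss27*, a serine protease gene, was between 12.4 and 26.4 in WT and between 1.82 and 199.1 in *Chd8L*+/-. None of these 10 genes passed the threshold between genotypes.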

How the data were processed

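Per gene and library, the deposited table holds a signal: per the labels and the paper's methods, the authors prepared poly(A) libraries, sequenced 75-base single-end reads, mapped them to mm10 with Tophat2 2.0.12 and ran DESeq2, so each value is a count divided by a size factor. The counting program, annotation and use of strand are not given in the sources used here. All values were whole multiples of 1 read within a tolerance of 0.01, so reads were recovered for 100% of them. Because the table holds normalized values, limma 3.58.1 (R 4.3.3) was run on log2(value + 1) over all 12 libraries keeping genes whose mean reached 10, with Benjamini-Hochberg adjustment over the 12808 genes tested. Symbols that occur more than once were left out of per-gene summaries, leaving 12804. Single genes were also compared by a two-sided exact permutation test over all 792 assignments (smallest possible p = 0.00126); relations used 100000 resamples. scipy 1.17.1 was used for these. The limma fit was tested on simulated reads. These had the same dispersion for every gene and no effect of library letter or gut region, unlike the wide spread seen here. The members and lists were chosen with earlier results of these data known. Named by rule are the 7 genes, list genes past the threshold and the 3 of largest absolute fold change in each pathway list. The rule also names the 10 genes most like the set, the highest cell type markers and those at 0, and *Chd8*. *H2-Oa*, *H2-DMb2*, *Tap1*, *Ifng*, *Itgax*, *Flt3*, *Zbtb46*, *Itgam*, *C1qc*, *Cx3cr1*, *Gbp3* and *Zbp1* were named after their values were seen. So were the promoter motifs, ratios, letters and spread test. The gut region genes *Fabp6*, *Slc10a2*, *Car1*, *Pdx1*, *Slc40a1* and *Gata4* were also named outside the rule. Positions and exon lengths are from GENCODE M21 (GRCm38), which is not necessarily the annotation the authors used. Alternatives were pseudocounts of 0.5 and 5, quantile normalization, dropping the filter or asking for 10 in each library, the recovered reads in edgeR 4.0.16 or in DESeq2 1.42.0, the replicate number or opening letter as a block, and each library left out. A row whose name a spreadsheet had turned into a date was not matched to a gene.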

Additional observations from a re-analysis of the deposited data

Results flagged for a closer look

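In 42 groups (7 genes and 14 lists in each genotype) the highest and the lowest library were tested with Dixon's criterion, which chance passes in about 1 in 20 groups; 3 were passed. No single class II gene was among them. The mean log2 value of MHC class I presentation was 11.11 in WT replicate 2, below the 11.41 to 11.51 of the other WT libraries. The mean of macrophage and monocyte markers was 6.208 in the same library, above the 4.803 to 5.196 of the others. The mean of 4 distal small intestine genes was 6.398 in *Chd8L*+/- replicate 6, against 9.93 to 11.68 in the other *Chd8L*+/- libraries; this was the library with the lowest *Cd74*, *H2-Aa* and *H2-DMb1*.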

How the results depend on the processing

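The 7 class II genes were called 0 times in each of the 21 alternatives to the fit, with adjusted p between 0.177 and 0.994. Of the 147 fold changes in these, 117 kept their sign. *Cd74* changed sign to 0.14 with quantile normalization, 0.94 with edgeR, 0.92 with DESeq2, 0.64 with the replicate block and 0.81 with the letter block. *H2-DMa* changed sign to 0.49 with edgeR, 0.47 with DESeq2, 0.26 with the replicate block and 0.54 with the letter block. On untransformed means *Cd74* was higher in *Chd8L*+/- by 2852 and *H2-DMa* by 120.3 normalized read counts, and *H2-DMb1* with *H2-DMb2* added gave -0.0035. The median of the 7 was 0.94 with edgeR. With each library left out in turn, the log2 fold change was between -0.21 and 0.65 for *H2-Aa*, -0.053 and 0.68 for *H2-Ab1*, -0.18 and 0.51 for *H2-Eb1*, -0.46 and 0.41 for *Cd74*, 0.17 and 0.92 for *Ciita*, -0.42 and 0.12 for *H2-DMa*, and -0.25 and 0.61 for *H2-DMb1*. The number of genes called over the whole table was 3 with limma, 5 with edgeR, 811 with DESeq2, 0 with the replicate block, 451 with the letter block, and between 0 and 3534 with each library left out, the last without WT replicate 2. Mice with the same replicate number did not deviate together (r of deviations between -0.344 and 0.189 over 5 pairs). No pairing by replicate number was seen, but so few pairs cannot exclude one. Without the 2 libraries farthest from the list's median, *Cd74* against macrophage markers changed sign to -0.12 and against interferon-gamma targets was 0.52, past the threshold no longer. The causes of these changes were not tested. The class II gene with the fewest reads, *Ciita*, had at least 20 recovered reads in every library, and p-values measure the spread between 12 mice only.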

Other observations

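Gene markers of gut region differed between single libraries and are given beside the class II levels. *Fabp6*, the ileal bile acid-binding protein, was at 42.8 in *Chd8L*+/- replicate 6, and *Slc10a2*, the ileal bile acid transporter, was at 8.19 there, while in the other 11 libraries *Fabp6* was at 2376 or more and *Slc10a2* at 170.5 or more. Replicate 6 had the lowest *Cd74*, 499. *Chd8L*+/- replicate 5, with 13408 for *Cd74*, had the highest *Fabp6*, 22957, and *Slc10a2*, 2464. Replicate 1, with 18827 for *Fabp6*, had *Cd74* at 1131, below every WT library. The 5 colon genes summed to 20605 in *Chd8L*+/- replicate 4, against 5961 or less in the others, and this was the library with high class II genes and the lowest B cell markers. *Car1* alone was at 19138 there. The mean log2 value of 5 proximal small intestine genes was also highest among *Chd8L*+/- libraries in replicate 4, at 9.06, against 7.54 to 9.25 in WT. In that list *Pdx1* (287.9) and *Slc40a1* (2037) were at their highest of all libraries, while *Gata4* (1506) was below every WT library. The part of the sampled region in the class II levels was not tested.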
